A study of Mus musculus with 12 samples.

Results

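The genes described here are 47 factors of ribosome biogenesis and the nucleolus, listed by name for their function. The list was made with earlier results of these data known, so its counts are a description and not independent support. They are RNA polymerase I and its factors, the core proteins of small nucleolar ribonucleoproteins (snoRNPs), and factors that process and assemble the small and the large ribosomal subunit. All 47 were among the 32698 named genes of the count file, and all 47 were among the 13196 genes with enough counts to be tested. Their levels were measured by RNA sequencing in naive CD4+ T cells of the mouse that were stimulated in vitro through CD3 and CD28. Each of 4 groups had 3 libraries: KKO cells (Keap1 knockout) after 48 h of activation, WT cells (wild type) after 48 h, KKO cells after 24 h and WT cells after 24 h. All 4 groups received the same stimulus. No resting cells were analysed here. The labels do not say which part of Keap1 is deleted or in which cells. They also do not say whether the replicates are different animals or cultures. The p-values measure the spread between these libraries. Sex-linked transcripts, given below, differed within each group, so not all libraries of a group came from the same animal. The spread between libraries alike in these transcripts may still be technical.

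Ribosomes are built in the nucleolus, where RNA polymerase I transcribes the precursor of the ribosomal RNAs. Small nucleolar RNAs in snoRNPs guide its chemical modification, and a long series of helicases, GTPases, nucleases and scaffold proteins cuts, folds and packs it with ribosomal proteins into the small and large subunits. T cells that leave rest and begin to divide are known to raise this machinery early, and the transcription factor Myc is a known activator of many of its genes. KEAP1 is the adaptor through which a ubiquitin ligase keeps the transcription factor NRF2 low.

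Library totals were 17786533 to 32607685 expected counts. Levels are given as CPM, the counts of a gene per mega (M) of its library's scaled total, which is a share of the counted messenger RNA and not an amount per cell. In such bulk libraries fewer cells of a type and less RNA per cell cannot be told apart. Keap1 had 22.5, 20.7 and 20.2 CPM in KKO cells at 48 h, against 124, 132 and 122 CPM in WT cells at 48 h. At 24 h it had 16.5, 15.7 and 17.5 CPM in KKO cells, against 106, 109 and 106 CPM in WT cells. The summed level of 6 CD4+ T cell markers (Cd3d, Cd3e, Cd3g, Cd4, Cd5 and Cd28) was 1670 to 1870 CPM in KKO cells and 1740 to 1850 CPM in WT cells at 48 h, and 2090 to 2110 CPM in KKO cells and 2240 to 2320 CPM in WT cells at 24 h. The 9 B cell markers used here, from Cd79a to Fcmr, all had higher means in KKO than in WT cells at both times, and summed to 31.3 to 34.1 CPM in KKO cells and 11.8 to 13.8 CPM in WT cells at 48 h, and to 16.6 to 23.0 CPM in KKO cells and 6.9 to 11 CPM in WT cells at 24 h. The CD8 T cell markers Cd8a and Cd8b1 summed to 12.7 to 13.4 CPM in KKO cells and 8.32 to 10.6 CPM in WT cells at 48 h, and to 9.36 to 10.8 CPM in KKO cells and 7.04 to 8.11 CPM in WT cells at 24 h, without overlap. Erythroid markers summed to 1.13 to 1.43 CPM in KKO cells and 0.221 to 1.09 CPM in WT cells at 48 h, and overlapped at 24 h. The sums of natural killer, macrophage or monocyte, and dendritic cell markers were at most 5.87 CPM in any library and overlapped between genotypes at both times. The macrophage marker Fcgr1 and the dendritic cell markers Clec9a and Cd209a were at 0 in all 4 groups. Sex-linked transcripts differed within groups: Xist without Y-linked transcripts marked KKO replicate 2 and WT replicates 1 and 2 at both times, with at most 2.83 CPM of Y-linked transcripts in any of these libraries. Y-linked transcripts with almost no Xist marked WT replicate 3 at both times and the KKO libraries numbered 1 at 48 h and 3 at 24 h. Both kinds were present in replicate 3 of KKO cells at 48 h and in their replicate 1 at 24 h, so KKO replicates 1 and 3 differed in this reading between the times.

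Between 24 h and 48 h nearly the whole set fell, in both genotypes. The 47 genes together took 1.11 to 1.51% of the counts of a library at 48 h and 2.13 to 2.20% at 24 h. Their summed level was 11360, 13674 and 11523 CPM in KKO cells at 48 h (mean 12190 ± 1290, SD, n = 3), against 14986, 14022 and 13343 CPM in WT cells at 48 h (14120 ± 826, SD, n = 3). At 24 h it was 22042, 20766 and 21481 CPM in KKO cells (21430 ± 640, SD, n = 3), against 21531, 21950 and 21976 CPM in WT cells (21820 ± 250, SD, n = 3). Every library of 48 h lay far below every library of 24 h. At 48 h the sums of KKO and WT cells overlapped, since KKO replicate 2 lay above WT replicate 3, and at 24 h they overlapped too. Ncl and Npm1 alone make up a large part of the sum, and without them it was 6541 ± 916 CPM in KKO cells and 7906 ± 664 CPM in WT cells at 48 h, against 12580 ± 282 CPM in KKO cells and 12800 ± 12.6 CPM in WT cells at 24 h (SD, n = 3 each).

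**Figure D1:**
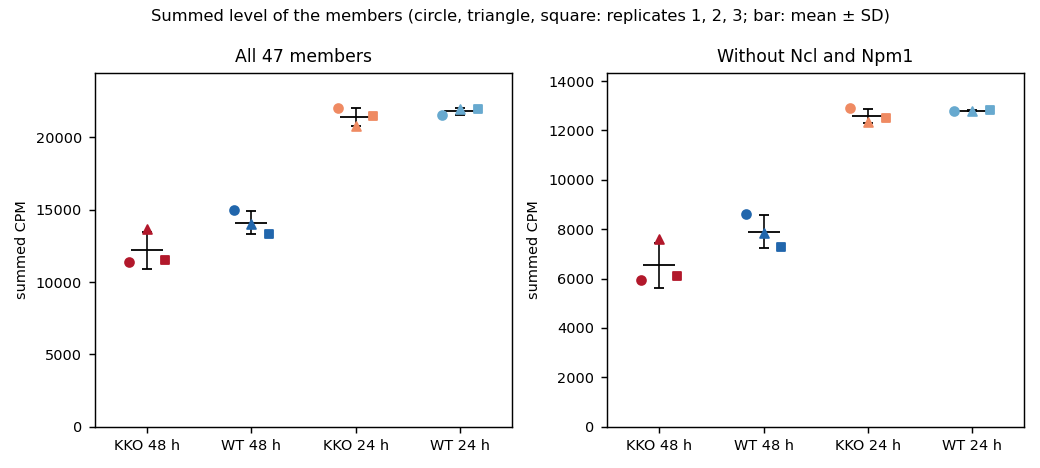
Summed CPM of the 47 genes (left) and of the same genes without Ncl and Npm1 (right) in each library, by group, with the mean and SD of 3 libraries. The 6 libraries of 48 h sit between 11360 and 14986 CPM and the 6 libraries of 24 h between 20766 and 22042 CPM in the left panel, while KKO and WT overlap at both times.

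In KKO cells 45 of the 47 genes were lower at 48 h than at 24 h and 0 were higher by edgeR's quasi-likelihood F test, at a Benjamini-Hochberg adjusted p under 0.05. Of all tested genes, 33.4% were lower in this comparison, 34.4% higher and 67.8% called in either direction. The median log2 fold change of the 47 genes was -0.93, against 0.002 over all tested genes, and the values ran from -1.92 for Utp20 to 0.07 for Polr1c. The 2 genes without a call were Polr1c and Ddx10. In WT cells 45 of 47 were lower and 0 higher, where 29.7% of all tested genes were lower, 31% higher and 60.8% called in either direction. The WT values had a median of -0.72 against -0.001 over all genes and ran from -1.50 for Utp20 to 0.01 for Ddx10. There the genes without a call were Ddx10 and Nob1. In each genotype 45 of the 47 genes had all 3 libraries of 48 h below all 3 of 24 h, against 34.7% of all tested genes in KKO cells and 34% in WT cells. The call was made in both genotypes for 44 genes. DESeq2 and limma-voom each called 45 lower in either genotype. Of these calls, 1 was lost when a library was left out, that of Gtpbp4 in WT cells, which held in 10 of 12 such fits.

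**Figure D2:**
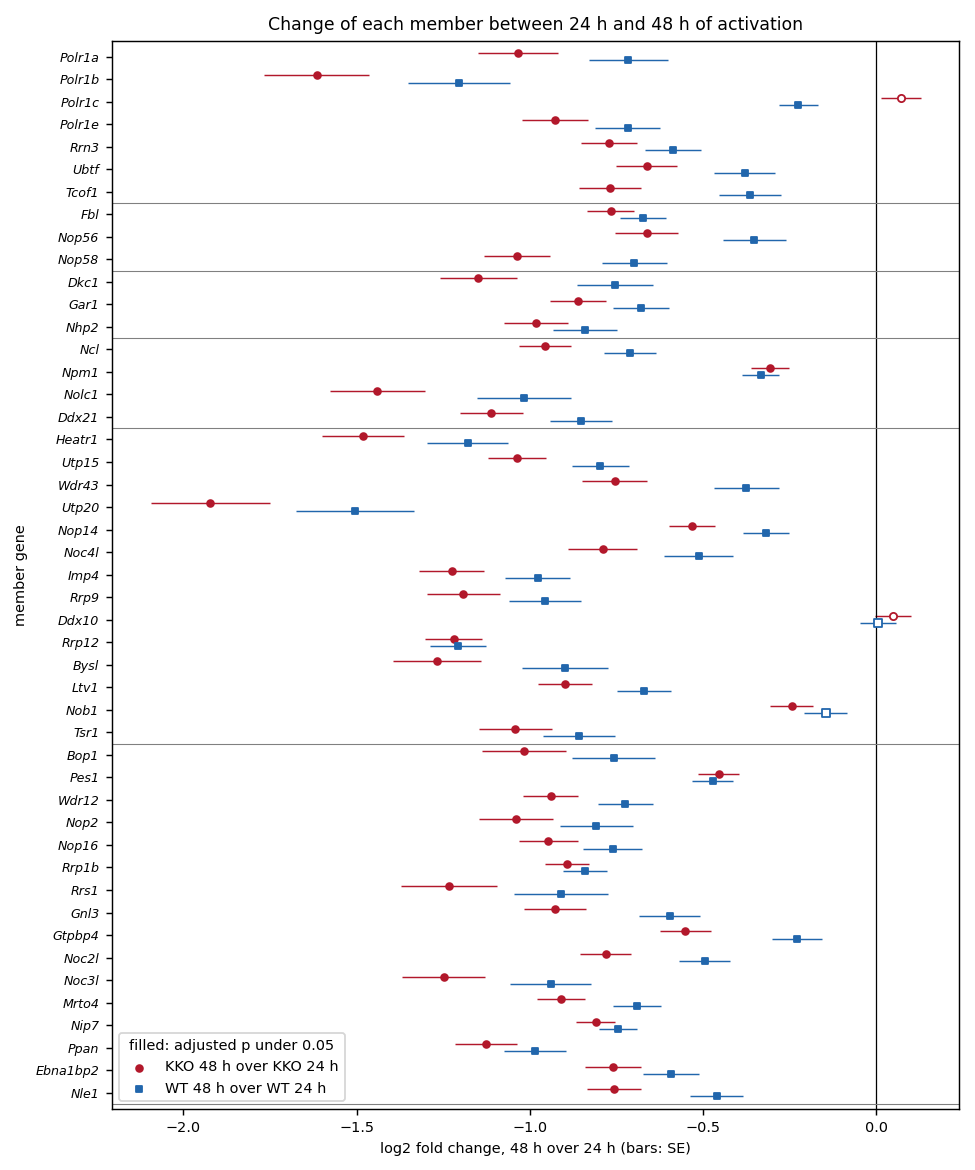
Log2 fold change of each gene between 48 h and 24 h, in KKO cells (circles) and WT cells (squares), with bars of 1 SE and filled symbols at an adjusted p under 0.05. Polr1c and Ddx10 in KKO cells and Ddx10 and Nob1 in WT cells are open, and all filled symbols lie below 0.

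At 48 h, 24 of the 47 genes were lower in KKO than in WT cells and 0 were higher by the same test, where 11.9% of all tested genes were called lower. The log2 fold change was negative for 45 of the 47, with a median of -0.26 against -0.004 over all tested genes. The smallest adjusted p belonged to Gtpbp4 (0.00751) and Tcof1 (0.00832), and the other 22 calls had an adjusted p over 0.01. The differences were small beside the replicate spread: 8 of 47 genes (17%) had all KKO libraries below all WT libraries, close to the 16.2% of all tested genes. The 8 were Tcof1, Nop58, Dkc1, Wdr43, Nop14, Gnl3, Gtpbp4 and Mrto4. KKO replicate 2 was the highest KKO library for 45 of the 47 genes, and WT replicate 1 the highest WT library for 45 and WT replicate 3 the lowest for 39. The count of 24 depended on which libraries entered. It was 0 in a fit of the 6 libraries of 48 h alone, where 27 genes had an unadjusted p under 0.05 and the smallest adjusted p was 0.0543. It was 2 at an adjusted p under 0.01, and among the libraries of 48 h leaving out KKO replicate 1 gave 2, leaving out KKO replicate 2 gave 40 and leaving out KKO replicate 3 gave 2. It was 1 without WT replicate 1 of 48 h and 5 without WT replicate 2. The share of all tested genes called lower, 11.9% in the main fit, also changed with the fit. It was 5.13% with the libraries of 48 h alone and 4.78% at an adjusted p under 0.01. Without KKO replicate 1, 2 or 3 of 48 h it was 4.75, 21.1 and 5.88%. Without WT replicate 1 or 2 of 48 h, 771 and 792 of all tested genes were lower, against 1574 in the main fit. The libraries of 24 h enter through the shared estimate of spread. Of the 47 genes, 13 were called lower without KKO replicate 1 of 24 h, 15 without WT replicate 2 and 12 without WT replicate 3. In that order, 1378, 1335 and 1332 of all tested genes were lower. DESeq2 and limma-voom each called 26 of the 47 lower, and 1618 and 1545 of all tested genes. Gtpbp4 was the single gene called in all 12 fits that left out 1 library. The direction was steadier than the calls, and 43 genes kept a negative log2 fold change in every alternative.

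The sex-linked transcripts went in part with these levels at 48 h. KKO replicate 2, the highest KKO library, was the one with Xist and at most traces of Y-linked transcripts, and WT replicate 3, often the lowest WT library, was the one with Y-linked transcripts. KKO replicate 3, with 105 CPM of Xist beside 149 CPM of Y-linked transcripts, had a summed level of 11523 CPM. Replicate 1, with almost no Xist, had 11360 CPM. At 24 h the lowest sums of each genotype were in libraries with Xist, KKO replicate 2 (20766 CPM) and WT replicate 1 (21531 CPM). The ratio of the summed level was 0.943 for KKO replicate 2 over the mean of WT replicates 1 and 2, the libraries with Xist. The ratio was 0.851 for KKO replicate 1 over WT replicate 3, the libraries with Y-linked transcripts. The same ratios at 24 h, where no gene was called, were 0.955 for the libraries with Xist and 0.977 for those with Y-linked transcripts. Each ratio rests on 1 KKO library and was not tested. Without the pair of KKO libraries with both kinds, 0 genes were called lower, 18 had an unadjusted p under 0.05 and the median was -0.21. That fit called 4.84% of all tested genes lower, against 11.9% in the main fit. With the level of Y-linked transcripts as a covariate, 19 genes were called lower and the median was -0.22. There 10.3% of all tested genes were lower. The B cell and CD8 T cell markers, and at 48 h the erythroid markers, also moved with genotype, and their part in the result was not tested.

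**Figure D3:**
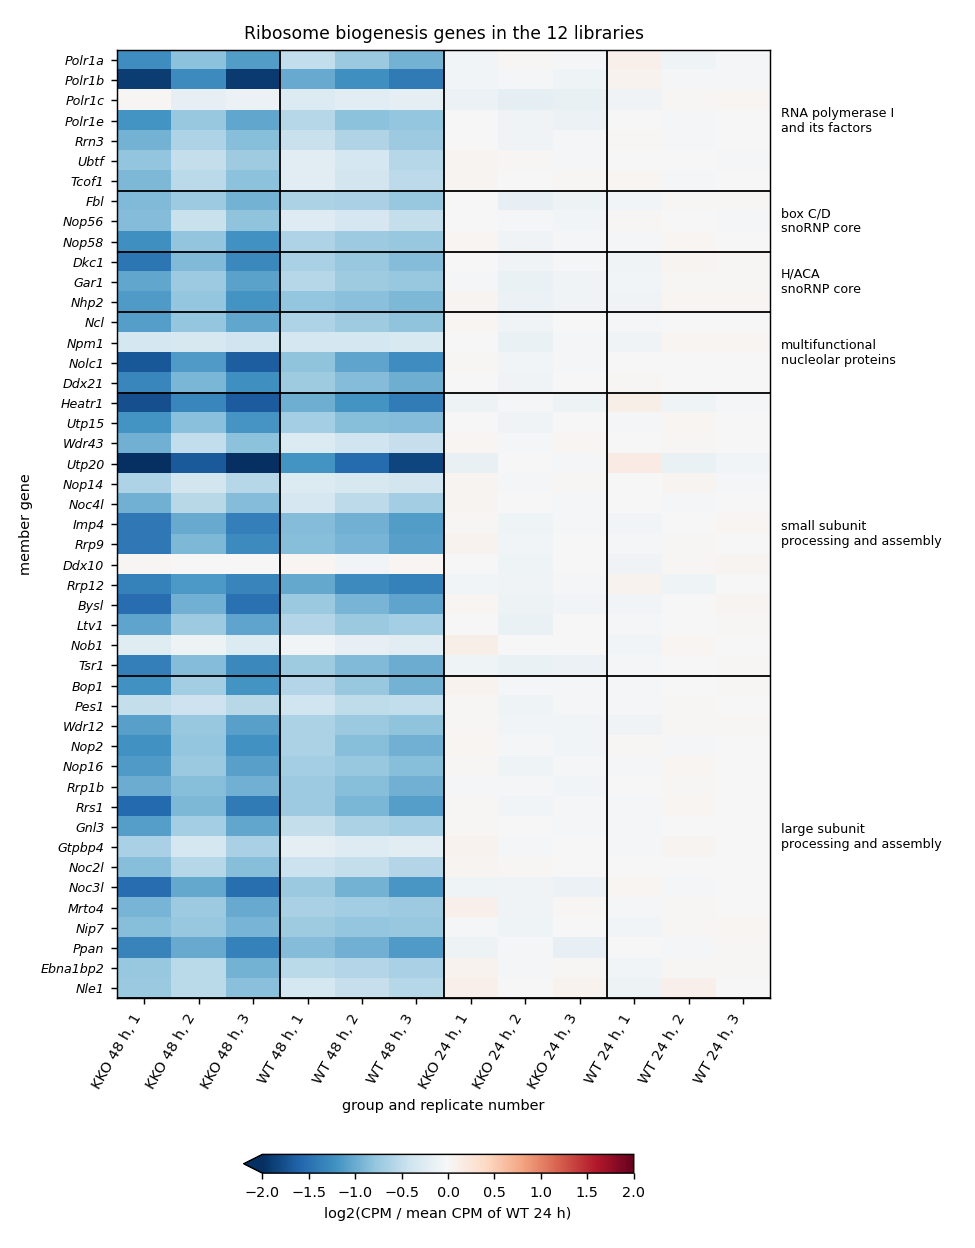
Log2 ratio of the CPM of each gene (rows, by role) in each library (columns) to the gene's mean CPM in WT cells at 24 h; blue is lower. The columns of 48 h are blue for nearly all genes and palest at 48 h for Npm1, Polr1c, Ddx10 and Nob1, and among the KKO libraries of 48 h replicate 2 is paler than replicates 1 and 3.

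Promoter sequences are shown for 3 of the genes that were lower in KKO cells at 48 h, to make visible what letters lie near their starts. The RefSeq promoter table (GRCm38.p6) held 41 of the 47 genes, each with 250 bases before and 50 after the start; Npm1, Fbl, Rrp12, Tcof1, Rrs1 and Bop1 were not matched. Windows were searched for CACGTG, the E-box that Myc with its partner Max can bind, which reads the same on both strands. They were also searched on both strands for TGACNNNGC, the core of the antioxidant response element that NRF2 can bind. The motifs do not overlap each other in the promoters of these genes. CACGTG was in 9 of 41 promoters (22%; Imp4, Nop2, Ltv1, Utp20, Pes1, Tsr1, Nle1, Rrn3 and Wdr43), against 8.09% of the 27025 genes in the table. Among the 23 matched genes called lower at 48 h it was in 4 (17.4%), and among the 18 other matched genes in 5 (27.8%). TGACNNNGC was in 2 of 41 promoters (4.88%, Gar1 and Bysl), against 14% of all genes. It was in 2 of the 23 matched genes called lower at 48 h (8.7%) and in 0 of the 18 others. A match is a description of the letters and not a bound site. Wdr43 holds the E-box, in capitals, 18 bases after its start in that table (chr17:71616095-71616244, plus strand, 120 bases before to 30 after the start). The GENCODE annotation starts Wdr43 earlier, at chr17:71615895, so there the whole printed stretch lies inside the gene. Gar1 holds the NRF2 core at 2 places, in capitals, the first on the reverse strand (chr3:129831397-129831616, minus strand, the 220 bases before the start). Gtpbp4 holds neither motif in its window (chr13:8995983-8996132, minus strand, 120 bases before to 30 after the start). Its GENCODE start, chr13:8996083, also lies before the start used here.
Wdr43: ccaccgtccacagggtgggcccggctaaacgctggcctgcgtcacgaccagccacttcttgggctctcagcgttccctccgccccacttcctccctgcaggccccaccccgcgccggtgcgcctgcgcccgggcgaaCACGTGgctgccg
Gar1: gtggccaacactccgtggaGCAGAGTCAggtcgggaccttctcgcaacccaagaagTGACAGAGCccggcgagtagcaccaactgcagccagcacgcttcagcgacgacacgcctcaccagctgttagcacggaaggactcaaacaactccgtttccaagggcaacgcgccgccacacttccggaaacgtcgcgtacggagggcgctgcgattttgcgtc
Gtpbp4: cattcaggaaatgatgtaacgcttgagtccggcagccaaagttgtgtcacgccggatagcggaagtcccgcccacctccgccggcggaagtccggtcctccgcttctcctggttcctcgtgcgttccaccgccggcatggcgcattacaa

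RNA polymerase I and its factors were 7 genes. Of these, 6 fell between 24 h and 48 h in KKO cells and 7 in WT cells, and 4 were lower in KKO than in WT cells at 48 h. Of all tested genes, 33.4% fell with time in KKO cells and 29.7% in WT cells. At 48 h 11.9% of all tested genes were lower in KKO than in WT cells. Tcof1 encodes treacle, a nucleolar scaffold that joins RNA polymerase I transcription to modification of the transcript. Tcof1 had 310.1, 399.9 and 330.3 CPM in KKO cells at 48 h, against 499.6, 448 and 404 CPM in WT cells. All KKO libraries lay below all WT libraries, by a narrow margin between KKO replicate 2 and WT replicate 3, and the log2 fold change was -0.38 (SE 0.0893, adjusted p = 0.00832), called in 11 of 12 fits that left out a library. At 24 h Tcof1 had 603, 578 and 592 CPM in KKO cells, against 599, 565 and 578 CPM in WT cells, and the groups overlapped. Ubtf encodes UBF, which binds and shapes active ribosomal DNA. Ubtf had 211, 265 and 223 CPM in KKO cells at 48 h, against 313, 287 and 246 CPM in WT cells. The groups overlapped in 1 pair of libraries, and the log2 fold change was -0.27 (SE 0.0881, adjusted p = 0.0361), called in 3 of those 12 fits.

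Polr1b, the second-largest subunit of RNA polymerase I, changed most of the 7 genes over time. It had 56.01, 85.8 and 55.2 CPM in KKO cells at 48 h, against 104, 89.4 and 77.9 CPM in WT cells. Polr1b at 24 h had 201, 205 and 196 CPM in KKO cells, against 219, 203 and 203 CPM in WT cells. All libraries of 48 h were far below those of 24 h, with log2 fold changes of -1.61 (SE 0.151, adjusted p = 1.74e-06) in KKO cells and -1.21 (SE 0.148, adjusted p = 2.46e-05) in WT cells. Its KKO over WT value at 48 h was -0.46 (SE 0.151, adjusted p = 0.045), with overlapping groups, and was called in 2 of the 12 fits. Polr1a, the largest catalytic subunit, was likewise lower in KKO cells at 48 h, at -0.33 (SE 0.114, adjusted p = 0.0488), a call that 2 of the 12 fits kept. The subunit gene Polr1e had 22.8, 31.01 and 25.4 CPM in KKO cells at 48 h, against 35.3, 29.6 and 30.4 CPM in WT cells. Polr1e at 24 h had 52.6, 49.6 and 48.1 CPM in KKO cells, against 52.6, 51.2 and 52.7 CPM in WT cells. Polr1e fell with time, at -0.93 (SE 0.0953, adjusted p = 7.65e-07) in KKO cells and -0.72 (SE 0.0936, adjusted p = 1.2e-05) in WT cells. Rrn3, the initiation factor that brings the polymerase to the ribosomal DNA promoter, had 91.7, 115 and 98.2 CPM in KKO cells at 48 h, against 130.1, 117 and 108 CPM in WT cells. Rrn3 at 24 h had 179, 169 and 173 CPM in KKO cells, against 179.5, 175 and 178 CPM in WT cells. Its log2 fold change with time was -0.77 (SE 0.0812, adjusted p = 9.08e-07) in KKO cells and -0.59 (SE 0.0806, adjusted p = 1.86e-05) in WT cells, and its KKO over WT value at 48 h did not pass the test (-0.22, adjusted p = 0.0657).

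Polr1c, a subunit shared by RNA polymerases I and III, went against the rest of the group. It had 102, 90.3 and 92.9 CPM in KKO cells at 48 h, against 83.3, 86.2 and 89.2 CPM in WT cells. Polr1c at 24 h had 92.9, 87.8 and 90.8 CPM in KKO cells, against 96.3, 102 and 104 CPM in WT cells. All KKO libraries lay above all WT libraries at 48 h and below them at 24 h. Neither difference passed the test, with log2 fold changes of 0.14 (SE 0.0573, adjusted p = 0.0835) at 48 h and -0.16 (SE 0.0564, adjusted p = 0.238) at 24 h. The difference between the KKO over WT values of the 2 times was 0.30 (SE 0.0804, adjusted p = 0.0508), just short of the threshold in the edgeR fit and called by DESeq2. In WT cells Polr1c fell with time, at -0.23 (SE 0.0567, adjusted p = 0.00305), and in KKO cells it had a value of 0.07 (SE 0.0569, adjusted p = 0.274).

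The box C/D snoRNP core, which adds methyl groups to ribosomal RNA, was represented by Fbl, the methyltransferase fibrillarin, and its scaffold partners Nop56 and Nop58. All 3 genes fell with time in both genotypes, and 2 of the 3 were lower in KKO than in WT cells at 48 h. Among all tested genes, 33.4% fell in KKO cells and 29.7% in WT cells, and 11.9% were lower in KKO cells at 48 h. Nop58 had 177, 240.5 and 179.7 CPM in KKO cells at 48 h, against 270.2, 253 and 247 CPM in WT cells. Nop58 at 24 h had 426, 396 and 403 CPM in KKO cells, against 405, 427 and 416 CPM in WT cells. At 48 h the highest KKO library was just below the lowest WT library, and the log2 fold change was -0.37 (SE 0.0945, adjusted p = 0.0132), called in 9 of 12 fits. Its log2 fold change with time was -1.04 (SE 0.095, adjusted p = 2.88e-07) in KKO cells and -0.70 (SE 0.0942, adjusted p = 1.78e-05) in WT cells. Nop56 had 291, 390.3 and 303 CPM in KKO cells at 48 h, against 446, 419.6 and 384 CPM in WT cells, with 1 pair of libraries overlapping. Its KKO over WT value at 48 h was -0.34 (SE 0.0914, adjusted p = 0.0154), called in 8 of 12 fits, and at 24 h it had 529.7, 518 and 511 CPM in KKO cells, against 542, 527 and 525 CPM in WT cells. Fbl had 288, 321 and 278 CPM in KKO cells at 48 h, against 346, 341 and 317 CPM in WT cells. Fbl at 24 h had 533, 478 and 498 CPM in KKO cells, against 512, 543 and 545 CPM in WT cells. Fbl fell with time, at -0.77 (SE 0.0673, adjusted p = 1.64e-07) in KKO cells and -0.67 (SE 0.0671, adjusted p = 8.47e-07) in WT cells, and its KKO over WT value at 48 h did not pass the test (-0.18, adjusted p = 0.0657).

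The H/ACA snoRNP core turns uridines of ribosomal RNA into pseudouridines, with Dkc1, the enzyme dyskerin, and its partners Gar1 and Nhp2. All 3 genes fell with time in both genotypes, and Dkc1 and Gar1 were lower in KKO than in WT cells at 48 h. Among all tested genes, 33.4% fell in KKO cells and 29.7% in WT cells, and 11.9% were lower in KKO cells at 48 h. Dkc1, on the X chromosome (chrX:75095854-75109777, GRCm38), had 138, 204 and 154 CPM in KKO cells at 48 h, against 239, 221 and 205 CPM in WT cells. KKO replicate 2 lay just below WT replicate 3, and the log2 fold change was -0.43 (SE 0.111, adjusted p = 0.0142), called in 8 of 12 fits. At 24 h Dkc1 had 375, 355 and 366 CPM in KKO cells, against 356, 388 and 379 CPM in WT cells, and the groups overlapped. Gar1, whose promoter is printed above, had 73.3, 90.9 and 71.5 CPM in KKO cells at 48 h, against 101, 92.3 and 88.8 CPM in WT cells. Gar1 at 24 h had 147, 137 and 144 CPM in KKO cells, against 145, 153 and 153 CPM in WT cells. The KKO and WT libraries of 48 h overlapped, and the log2 fold change was -0.26 (SE 0.0811, adjusted p = 0.0309), called in 8 of 12 fits. Gar1 fell with time, at -0.86 (SE 0.0806, adjusted p = 3.04e-07) in KKO cells and -0.68 (SE 0.0798, adjusted p = 4.34e-06) in WT cells. Nhp2 had 131, 168 and 125 CPM in KKO cells at 48 h, against 167, 159.6 and 153 CPM in WT cells. Nhp2 at 24 h had 298, 265 and 274 CPM in KKO cells, against 271, 294 and 293 CPM in WT cells. Its libraries overlapped between genotypes at both times, and its log2 fold change with time was -0.98 (SE 0.0926, adjusted p = 3.67e-07) in KKO cells and -0.84 (SE 0.0921, adjusted p = 2.43e-06) in WT cells.

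The multifunctional nucleolar proteins were Ncl (nucleolin), Npm1 (nucleophosmin), Nolc1, which carries snoRNPs in the nucleolus, and Ddx21, an RNA helicase of ribosomal RNA transcription and processing. All 4 fell with time in both genotypes, and 3 of the 4 were lower in KKO than in WT cells at 48 h. The shares of all tested genes were 33.4% falling in KKO cells, 29.7% falling in WT cells and 11.9% lower in KKO cells at 48 h. Nolc1 had 287, 427 and 299.5 CPM in KKO cells at 48 h, against 538, 452 and 397 CPM in WT cells. Nolc1 at 24 h had 946, 897 and 908 CPM in KKO cells, against 936, 932 and 935 CPM in WT cells. KKO replicate 2 lay among the WT libraries at 48 h, and the KKO over WT value was -0.45 (SE 0.135, adjusted p = 0.0302), called in 8 of 12 fits. Nolc1 fell with time, at -1.44 (SE 0.137, adjusted p = 1.26e-06) in KKO cells and -1.02 (SE 0.136, adjusted p = 3.46e-05) in WT cells, the steepest fall of the 4. Ncl had 2420, 3026 and 2535 CPM in KKO cells at 48 h, against 3374, 3182 and 2961 CPM in WT cells. Ncl at 24 h had 5306, 4930 and 5243 CPM in KKO cells, against 5096, 5238 and 5233 CPM in WT cells. The groups of 48 h overlapped in 1 pair of libraries, with a KKO over WT value of -0.25 (SE 0.0753, adjusted p = 0.0254), called in 8 of 12 fits.

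Ddx21 had 512, 676 and 544 CPM in KKO cells at 48 h, against 775, 693 and 643 CPM in WT cells. Ddx21 at 24 h had 1273, 1207 and 1262 CPM in KKO cells, against 1288, 1261 and 1262 CPM in WT cells. It fell with time, at -1.11 (SE 0.0909, adjusted p = 9.95e-08) in KKO cells and -0.85 (SE 0.0904, adjusted p = 1.76e-06) in WT cells, and its KKO over WT value at 48 h was -0.29 (SE 0.09, adjusted p = 0.0335), called in 5 of 12 fits. Npm1 had the highest level per kilobase of its principal transcript of the 47 genes in all 4 groups, at 1827 CPM per kilobase in KKO cells and 1860 in WT cells at 48 h, and 2261 in KKO cells and 2345 in WT cells at 24 h. In CPM it had 2999, 3052 and 2901 in KKO cells at 48 h, against 3011, 3000 and 3104 in WT cells at 48 h, and 3844, 3493 and 3738 in KKO cells at 24 h, against 3634, 3925 and 3933 in WT cells at 24 h. KKO and WT libraries were interleaved at both times, and the KKO over WT value at 48 h was -0.03 (95% interval -0.14 to 0.09). Npm1 fell with time, at -0.31 (SE 0.054, adjusted p = 0.00013) in KKO cells and -0.33 (SE 0.054, adjusted p = 8.26e-05) in WT cells.

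**Figure D4:**
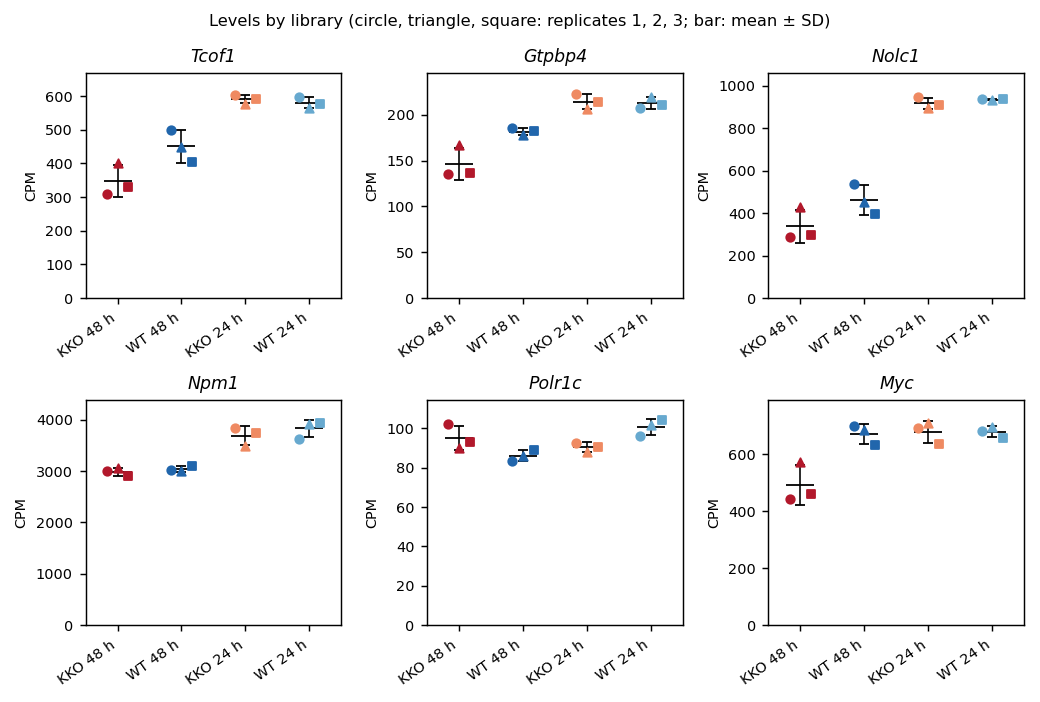
CPM of Tcof1, Gtpbp4, Nolc1, Npm1, Polr1c and Myc in each library, by group, with the mean and SD of 3 libraries; circles, triangles and squares are replicates 1, 2 and 3. Tcof1, Gtpbp4 and Nolc1 are lowest in KKO cells at 48 h, the KKO and WT libraries of Npm1 are interleaved, Polr1c stays between 83.3 and 104 CPM, and Myc is lower in KKO cells at 48 h than in the other 3 groups.

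Of the 14 genes of small subunit processing and assembly, 13 fell with time in KKO cells and 12 in WT cells, and 7 were lower in KKO than in WT cells at 48 h. The shares of all tested genes were 33.4% falling in KKO cells, 29.7% falling in WT cells and 11.9% lower in KKO cells at 48 h. Wdr43, Heatr1 and Utp15 belong to the early complex that binds the nascent ribosomal RNA precursor. Wdr43, whose promoter with the E-box is printed above, had 187, 260.4 and 207 CPM in KKO cells at 48 h, against 302, 278 and 264 CPM in WT cells. Wdr43 at 24 h had 374, 356 and 373 CPM in KKO cells, against 361, 371 and 361 CPM in WT cells. The KKO libraries of 48 h lay below the WT libraries, KKO replicate 2 by a small margin, and the log2 fold change was -0.37 (SE 0.0943, adjusted p = 0.0131), called in 9 of 12 fits. Heatr1 had 115, 157 and 122 CPM in KKO cells at 48 h, against 198, 169 and 148 CPM in WT cells. Heatr1 at 24 h had 362, 379 and 360.3 CPM in KKO cells, against 422, 366 and 378 CPM in WT cells. Its KKO over WT value at 48 h was -0.39 (SE 0.117, adjusted p = 0.0307), with overlapping libraries, called in 6 of 12 fits. Utp15 had 67.6, 86.7 and 68.2 CPM in KKO cells at 48 h, against 97.1, 86.4 and 84.8 CPM in WT cells. Utp15 at 24 h had 154, 148 and 154 CPM in KKO cells, against 151, 159 and 156 CPM in WT cells. It fell with time, at -1.04 (SE 0.0836, adjusted p = 7.93e-08) in KKO cells and -0.80 (SE 0.0826, adjusted p = 1.35e-06) in WT cells. Ltv1, known in yeast for late steps of small subunit assembly and export, had 59.99, 74.9 and 59.96 CPM in KKO cells at 48 h, against 82.7, 74.3 and 77.5 CPM in WT cells. Ltv1 at 24 h had 126, 114 and 124 CPM in KKO cells, against 122, 126 and 126 CPM in WT cells. KKO replicate 2 was within the WT range, and the KKO over WT value was -0.27 (SE 0.0787, adjusted p = 0.0242), called in 9 of 12 fits.

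Rrp12, known in yeast for export of subunits from the nucleus, and Imp4, a protein of the complex that cleaves the precursor, had the smallest p-values over time in this group. Rrp12 had 85.6, 98.2 and 87.1 CPM in KKO cells at 48 h, against 108, 90.01 and 85.7 CPM in WT cells. Rrp12 at 24 h had 209.7, 207 and 214 CPM in KKO cells, against 230.1, 206 and 219 CPM in WT cells. It fell with time, at -1.22 (SE 0.0818, adjusted p = 1.37e-08) in KKO cells and -1.21 (SE 0.0815, adjusted p = 1.69e-08) in WT cells, and KKO and WT libraries overlapped at both times. Imp4 had 63.4, 84.98 and 66.3 CPM in KKO cells at 48 h, against 93.9, 88.1 and 78.4 CPM in WT cells. Imp4 at 24 h had 174, 161 and 167 CPM in KKO cells, against 165, 172 and 176 CPM in WT cells. Its log2 fold change with time was -1.23 (SE 0.0946, adjusted p = 6.96e-08) in KKO cells and -0.98 (SE 0.0935, adjusted p = 7.4e-07) in WT cells. Utp20, a scaffold of the small subunit precursor, had the largest fall of the 47 genes, with 61.3, 94.2 and 74.9 CPM in KKO cells at 48 h, against 132, 104 and 84.7 CPM in WT cells. Utp20 at 24 h had 274, 305 and 294 CPM in KKO cells, against 338, 277 and 293 CPM in WT cells. It also had the most negative KKO over WT value at 48 h, -0.47 (SE 0.17, adjusted p = 0.064), which did not pass the test; KKO replicate 2 lay above WT replicate 3.

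Nop14, which joins early complexes of the small subunit, was lower in KKO cells at 48 h at -0.19 (SE 0.0667, adjusted p = 0.0475), as were Imp4 at -0.28 (SE 0.095, adjusted p = 0.0454), Utp15 at -0.27 (SE 0.0841, adjusted p = 0.031) and Bysl, a late assembly factor, at -0.41 (SE 0.127, adjusted p = 0.0366). Of 12 fits that left out a library, 2 kept the call of Nop14, 2 that of Imp4, 7 that of Utp15 and 4 that of Bysl. Noc4l, whose yeast counterpart binds that of Nop14, Rrp9, a protein of the snoRNP that guides early cleavage, Tsr1, Utp20, Rrp12, Nob1 and Ddx10 had no call at 48 h, with log2 fold changes from -0.47 for Utp20 to 0.01 for Ddx10. Tsr1, known in yeast for a late check of the small subunit, had 86.7, 122 and 91.3 CPM in KKO cells at 48 h, against 135, 121 and 112 CPM in WT cells. Tsr1 at 24 h had 209, 203 and 206 CPM in KKO cells, against 217, 225 and 226 CPM in WT cells. Its KKO libraries lay below the WT libraries at 24 h and overlapped them at 48 h. The RNA helicase gene Ddx10 had 114, 112 and 112 CPM in KKO cells at 48 h, against 116, 107 and 115 CPM in WT cells. Ddx10 at 24 h had 111, 105 and 112 CPM in KKO cells, against 106, 114 and 116 CPM in WT cells. All its 12 values lay in a narrow band, and it had no call in any of the 5 comparisons. Nob1, the nuclease that makes the final cut of the small subunit RNA, had 88.5, 97.2 and 86.3 CPM in KKO cells at 48 h, against 101, 92.9 and 89.7 CPM in WT cells. Nob1 at 24 h had 113, 103 and 105 CPM in KKO cells, against 100.2, 108 and 106 CPM in WT cells. Its change with time was -0.24 (SE 0.0626, adjusted p = 0.00286) in KKO cells and -0.15 (SE 0.0623, adjusted p = 0.0551) in WT cells.

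All 16 genes of large subunit processing and assembly fell with time in both genotypes, and 6 were lower in KKO than in WT cells at 48 h. Among all tested genes, 33.4% fell in KKO cells and 29.7% in WT cells, and 11.9% were lower in KKO cells at 48 h. Gtpbp4 encodes a GTPase of early large subunit precursors. Gtpbp4 had 136, 167 and 136 CPM in KKO cells at 48 h, against 185, 178 and 182 CPM in WT cells. Gtpbp4 at 24 h had 222, 207 and 214 CPM in KKO cells, against 207, 219.9 and 211 CPM in WT cells. The KKO libraries of 48 h lay below the WT libraries, and those of 24 h overlapped. Its KKO over WT value at 48 h was -0.31 (SE 0.073, adjusted p = 0.00751), which ranged from -0.43 to -0.26 over the fits that left out a library. It fell with time, at -0.55 (SE 0.0729, adjusted p = 8.82e-06) in KKO cells and -0.23 (SE 0.0725, adjusted p = 0.0131) in WT cells. Gnl3 encodes nucleostemin, a nucleolar GTPase of dividing cells, and had 94.7, 126 and 98.8 CPM in KKO cells at 48 h, against 146, 130.4 and 126 CPM in WT cells. Gnl3 at 24 h had 206, 202 and 199 CPM in KKO cells, against 199.8, 203 and 204 CPM in WT cells. Its highest KKO library of 48 h and lowest WT library of 48 h nearly met, and the log2 fold change was -0.33 (SE 0.0888, adjusted p = 0.0157), called in 8 of 12 fits. Noc2l, whose yeast counterpart binds large subunit precursors, had 341, 415 and 341 CPM in KKO cells at 48 h, against 461, 444 and 410.2 CPM in WT cells. Noc2l at 24 h had 644, 625 and 616 CPM in KKO cells, against 618, 619 and 616 CPM in WT cells. KKO replicate 2 was above WT replicate 3, and the log2 fold change was -0.26 (SE 0.0733, adjusted p = 0.0194), called in 8 of 12 fits.

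Nip7, Rrp1b, Mrto4 and Ppan had the smallest p-values over time among the 16. Nip7, known in yeast for large subunit maturation, had 80.8, 86.3 and 76.5 CPM in KKO cells at 48 h, against 89.04, 85.4 and 86.1 CPM in WT cells. Nip7 at 24 h had 144, 137 and 146 CPM in KKO cells, against 140.2, 148 and 149 CPM in WT cells. It fell with time, at -0.81 (SE 0.0555, adjusted p = 1.66e-08) in KKO cells and -0.75 (SE 0.0552, adjusted p = 4.25e-08) in WT cells. Rrp1b, a nucleolar protein of large subunit processing, had 119, 132 and 121 CPM in KKO cells at 48 h, against 143, 131 and 122 CPM in WT cells. Rrp1b at 24 h had 229, 232 and 228 CPM in KKO cells, against 234, 239 and 236 CPM in WT cells. Its log2 fold change with time was -0.89 (SE 0.0639, adjusted p = 2.51e-08) in KKO cells and -0.84 (SE 0.0636, adjusted p = 5.42e-08) in WT cells. Both genes had KKO and WT libraries that overlapped at 48 h, with KKO over WT values of -0.10 (95% interval -0.22 to 0.02) and -0.09 (-0.23 to 0.04). Mrto4, whose yeast counterpart holds the place of a stalk protein on the precursor, had 90.1, 104 and 85.1 CPM in KKO cells at 48 h, against 109.7, 106 and 104 CPM in WT cells. Mrto4 at 24 h had 185, 164 and 175 CPM in KKO cells, against 168, 175 and 173 CPM in WT cells. The groups of 48 h did not overlap, yet the gap between the nearest libraries was under 1 CPM and the difference did not pass the test (-0.20, adjusted p = 0.0544). Ppan, whose yeast counterpart acts in large subunit processing, had 95.2, 119 and 93.7 CPM in KKO cells at 48 h, against 131, 123 and 109 CPM in WT cells. Ppan at 24 h had 224, 235 and 213 CPM in KKO cells, against 241, 234 and 242 CPM in WT cells.

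Bop1, Pes1 and Wdr12 form 1 complex, PeBoW, that processes the large subunit RNA. Wdr12 was lower in KKO cells, at -0.24 (SE 0.0812, adjusted p = 0.0421), a call that 2 of 12 fits kept, Bop1 had -0.26 (SE 0.121, adjusted p = 0.135), and Pes1 had -0.01 (95% interval -0.14 to 0.12). Pes1 also fell least of the 16 with time in KKO cells, at -0.46 (SE 0.0589, adjusted p = 7.04e-06), against -0.47 (SE 0.0588, adjusted p = 7.43e-06) in WT cells. Noc3l and Nle1, whose yeast counterparts bind and release large subunit precursors, were lower in KKO cells at 48 h, with values of -0.40 (SE 0.121, adjusted p = 0.0322) and -0.24 (SE 0.0797, adjusted p = 0.0393). Of 12 fits that left out a library, 5 kept the call of Noc3l and 4 that of Nle1. The other genes of the 16 without a call at 48 h were Nop2, a methyltransferase, Nop16 and Ebna1bp2, whose yeast counterparts act in large subunit assembly, Rrs1, which brings the smallest ribosomal RNA into the large subunit, Ppan, Mrto4, Nip7 and Rrp1b, whose log2 fold changes ran from -0.35 for Rrs1 to -0.09 for Rrp1b. Noc3l had the steepest fall with time in KKO cells, at -1.25 (SE 0.119, adjusted p = 1.05e-06), and Ppan in WT cells, at -0.98 (SE 0.0882, adjusted p = 3.1e-07).

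**Figure D5:**
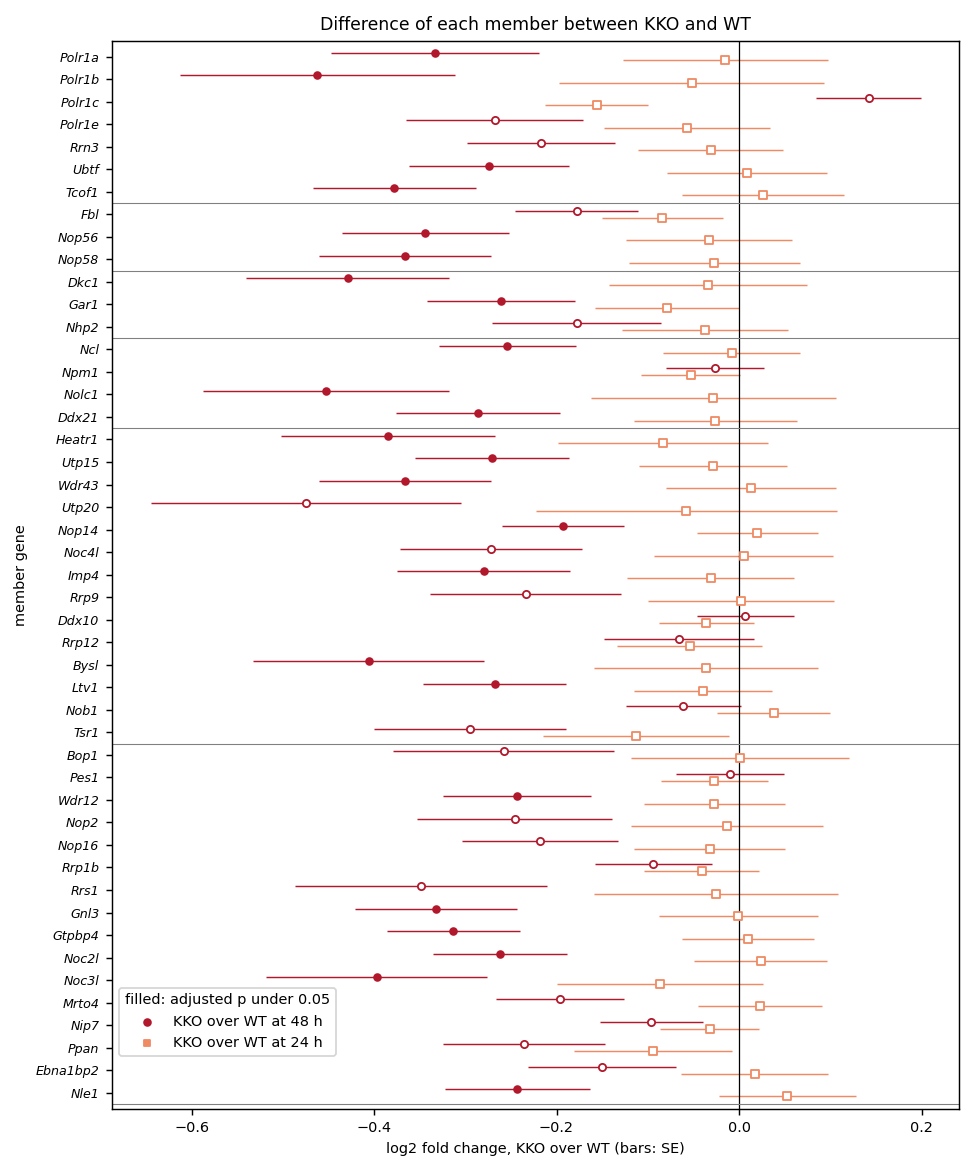
Log2 fold change of each gene, KKO over WT, at 48 h (circles) and at 24 h (squares), with bars of 1 SE and filled symbols at an adjusted p under 0.05. Filled circles all lie below 0, Polr1c is the gene farthest above 0 at 48 h, and all squares are open.

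At 24 h none of the 47 genes was called between KKO and WT cells by edgeR, DESeq2 or limma-voom, where edgeR called 1.89% of all tested genes higher and 0.432% lower, 2.33% in all. Among the 47, 1 gene, Polr1c, had an unadjusted p under 0.05. The median log2 fold change was -0.03, against -0.004 over all tested genes, and the values ran from -0.16 for Polr1c to 0.05 for Nle1. The 95% intervals of all 47 genes reached from -0.42 to 0.30. All KKO libraries lay below all WT libraries for 4 genes (8.51%: Polr1c, Tsr1, Rrp1b and Noc3l), against 9.46% of all tested genes. Next in order of p by role were Fbl at -0.08 (adjusted p = 0.794), Tsr1 at -0.11 (0.848), Ppan at -0.09 (0.854), Gar1 at -0.08 (0.872) and Npm1 at -0.05 (0.876). Nle1, the gene with the highest value, had 67.2, 62.8 and 65.9 CPM in KKO cells, against 58.6, 67.3 and 62.8 CPM in WT cells, and these overlapped. Noc3l had 103, 105 and 101 CPM in KKO cells, against 112, 108 and 108 CPM in WT cells, a gap smaller than the range of either group.

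Whether the KKO over WT difference itself changed between the times was tested as an interaction. No gene of the 47 passed in the edgeR fit, where 1.46% of all tested genes were higher and 2.72% lower, 4.18% in all. Limma-voom called 0 of the 47. DESeq2 called 1 higher and 2 lower, where 505 of the 13196 tested genes were higher and 4.73% lower. In the edgeR fit 15 genes had an unadjusted p under 0.05. The interaction was negative for 43 of the 47, with a median of -0.24 against -0.013 over all tested genes. The smallest adjusted p-values were those of Polr1c, given above, Tcof1 at -0.40 (SE 0.126, adjusted p = 0.0802) and Gtpbp4 at -0.32 (SE 0.103, adjusted p = 0.0851). In the other roles the smallest were Wdr43 at -0.38 (SE 0.133, adjusted p = 0.112), Nop58 at -0.34 (SE 0.133, adjusted p = 0.151), Dkc1 at -0.40 (SE 0.155, adjusted p = 0.155) and Ncl at -0.25 (SE 0.106, adjusted p = 0.19). Without KKO replicate 2 of 48 h, 37 genes were called lower and the median was -0.40. In that fit 14.4% of all tested genes were lower, against 2.72% in the main fit. Without WT replicate 3 of 48 h, 1 of the 47 was called higher and 1 lower. In that fit 387 of the 13508 tested genes were higher and 3.26% lower.

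Another 126 genes of the same pathway were listed by name, also with earlier results of these data known, and all were tested. Of these, 106 fell and 9 rose with time in KKO cells, where 33.4% of all tested genes fell and 34.4% rose. In WT cells 105 fell and 6 rose, where 29.7% of all tested genes fell and 31% rose. At 48 h, 36 were lower and 4 higher in KKO than in WT cells, with a median log2 fold change of -0.18, where 11.9% of all tested genes were lower and 12.4% higher. At 24 h 0 were called, and 2 had an unadjusted p under 0.05. By group, the calls at 48 h were 2 lower of 15 other RNA polymerase I subunits and factors, 3 lower of 11 other snoRNP proteins, and 13 lower and 1 higher of 40 other small subunit factors. They were 15 lower and 1 higher of 46 other large subunit factors, and 3 lower and 2 higher of 14 genes of the exosome and related nucleases. The lower calls with the smallest p were Ddx24, a helicase, at -0.36 (adjusted p = 0.00215), Znhit6, a snoRNP assembly factor, at -0.42 (0.00449) and Diexf, a small subunit factor, at -0.41 (0.00503). The higher ones were Gltscr2 at 0.34 (0.0126), Mphosph6 at 0.30 (0.0145), Exosc8 at 0.23 (0.0161) and Riok1 at 0.17 (0.0339), and these 4 also rose with time in both genotypes. Gltscr2 rose with time by 1.04 on the log2 scale (adjusted p = 1.27e-07) in KKO cells and by 0.63 (2.32e-05) in WT cells. Ddx24 was the single gene of the 126 called in the interaction, at -0.37 (adjusted p = 0.0415).

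Myc had 444, 574 and 459 CPM in KKO cells at 48 h, against 698, 684 and 632 CPM in WT cells at 48 h, and 692, 708 and 636 CPM in KKO cells at 24 h, against 682, 697 and 659 CPM in WT cells at 24 h. All KKO libraries of 48 h lay below the libraries of the other groups, with KKO replicate 2 again the highest of the KKO libraries. The KKO over WT value was -0.45 (SE 0.0851, adjusted p = 0.00232) at 48 h, and the difference between times was -0.45 (SE 0.120, adjusted p = 0.0507), which missed the threshold. Myc fell with time in KKO cells, at -0.46 (SE 0.0850, adjusted p = 0.000196), while its value in WT cells was -0.02 (SE 0.0847, adjusted p = 0.871). Over the same interval 45 of the 47 genes fell in WT cells, where 29.7% of all tested genes fell. Only Myc transcripts were measured here, and what part Myc has in these changes was not tested.

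Exons of 15 of the 47 genes overlap those of another gene on the opposite strand in the GENCODE annotation (GRCm38), and whether reads were counted by strand is not given in the sources used. The longest overlaps were 1159 bases of Tsr1 with Srr, 598 bases of Noc2l with Samd11 and 361 bases of Bysl with Ccnd3, and reads of such pairs may be split between them. Gtpbp4 shares 316 bases with Gm48649. All 47 genes had at least 464 counts in every library.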

How the data were processed

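Messenger RNA libraries of 12 samples, 3 per group, were analysed. The deposited file holds expected counts per gene, unnormalised, which the authors made with RSEM on mouse build mm10 after FastQC, per the submitters' processing notes; the versions, the aligner, the annotation and the strand setting are not given in the sources used here. A human reference is named in the design text, while the gene symbols are those of mouse. An expected count divides a read among the genes it fits, so 10.8 to 12.7% of a library's values are fractional. Another 6 columns with no matching sample label were not used, and 1 row named unknown stayed out of the named genes.

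After rounding, edgeR 4.0.16 (R 4.3.3) was used for tests: filterByExpr by group (minimum count 10), TMM scaling, and quasi-likelihood F tests with all 12 libraries in 1 fit, 4 group means and 8 residual degrees of freedom. Tests were two-sided and p-values were Benjamini-Hochberg adjusted over the 13196 tested genes, with a threshold of 0.05. The 5 comparisons were KKO over WT at 48 h and at 24 h, their difference (interaction), and 48 h over 24 h in each genotype. All replicate pairs differed by more than counting noise (chi-square over degrees of freedom 5.83 to 23.6) and correlated at Spearman's rho of 0.989 to 0.997. Intervals are 95%.

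The members and the lists of other pathway genes and markers were chosen with earlier results of these data known. A marker among those listed is not reported here. In each comparison the genes with the smallest p of each role are given with every library (2 of a role of 3 or 4 genes, 3 of a larger one), with the highest and lowest of the rest. Levels per kilobase used the principal transcript in GENCODE vM21. On simulated counts with 200 changed genes, the fit recovered 11.9% of 1.2-fold, 61.2% of 1.5-fold and 77.3% of 2-fold changes for KKO over WT at 48 h, 0 with the wrong sign, and 3.85% of calls were false. For KKO over WT at 24 h it recovered 8.96%, 58.2% and 77.3%, with 6.8% of calls false, and for the interaction 1.49%, 31.3% and 69.7%, with 6.85% false. For 48 h over 24 h it recovered 11.9%, 64.2% and 80.3% in KKO cells, with 7.14% false, and 13.4%, 71.6% and 74.2% in WT cells, with 8.62% false.

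Each result was recomputed with upper-quartile or RLE scaling, with DESeq2 1.42.0 and limma-voom (limma 3.58.1), with no filter or a filter of 1 CPM in 6 libraries, only the groups compared, an adjusted p under 0.01, the replicate number as a block, leaving out each library, leaving out the 2 libraries with both Xist and Y-linked transcripts, and the Y-linked level as a covariate. Deviations from the group means of WT libraries with the same replicate number at 48 h and 24 h correlated at 0.202, 0.167 and 0.465, all over 0.1. Replicate 2 of 48 h, however, correlated best with replicate 1 of 24 h. With the replicate block 45 of the 47 genes were lower at 48 h in WT cells, as without it.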

Additional observations from a re-analysis of the deposited data

How the results depend on the processing

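The fall between 24 h and 48 h kept its direction and its count within 1.5 times under all alternatives run. At 48 h the count of genes lower in KKO than in WT cells, 24, was 0 with only the groups compared, 2 at an adjusted p under 0.01, 0 without the 2 libraries holding both Xist and Y-linked transcripts, and 1 to 40 when 1 library was left out. The count was 16 with no filter on low counts and 26 with DESeq2 and limma-voom. The share of all tested genes called lower, 11.9% in the main fit, was 4.75 to 21.1% when 1 library was left out. It was 7.22% with no filter on low counts, 5.13% with only the groups compared and 4.78% at an adjusted p under 0.01. Of the genes called, 0 kept the call in every alternative, and 0 of the 47 reversed a called direction. Upper-quartile scaling called 1 gene higher at 48 h, where 1875 of all tested genes were higher, and leaving out 1 library 0 to 1. At 24 h, only the groups compared gave 1 gene lower, where 1.18% of all tested genes were lower. With the Y-linked level as a covariate the median at 24 h was 0.015. In the interaction, upper-quartile scaling, DESeq2, the stricter filter, the replicate block and the Y-linked covariate each called 1 gene higher. In that order, 231, 505, 275, 452 and 673 of all tested genes were higher. Leaving out 1 library gave 0 to 1 higher, where 37 to 1270 of all tested genes were higher. DESeq2 called 2 lower (4.73% of all tested genes) and the Y-linked covariate 4 (5.69%). Leaving out 1 library gave 0 to 37 lower, with medians of -0.171 to -0.396. When 1 library was left out, 0.783 to 14.4% of all tested genes were lower in the interaction, against 2.72% in the main fit. The causes were not tested. For the interaction, which uses all 4 groups, the fit of only the groups compared is the main one.

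With the replicate block, 21 of the 47 genes were lower in KKO than in WT cells at 48 h, where 10.5% of all tested genes were lower. With it 0 were called at 24 h, and 45 were lower at 48 h in each genotype. Apart from the interaction, the block moved no count of calls by over 1.5 times. Same-numbered libraries of KKO cells correlated across time at 0.054, 0.119 and 0.0417. Those of KKO and WT cells correlated at -0.433, 0.153 and 0.17 at 48 h and -0.44, -0.0578 and 0.351 at 24 h. The values were mixed, and the labels do not say whether libraries with the same number share an origin. On the simulated counts, differences of 1.2-fold were mostly not called. The simulation changed only 200 genes and drew each gene independently. In the data 24 of the 47 genes were called at 48 h, with a median log2 fold change of -0.26 over the 47. The simulated shares therefore need not hold for the data.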
